A study of Mus musculus with 9 samples.

Results

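The genes described here are 9 cell surface receptors of the CD300, TREM and PILR families. They were picked by symbol from a table of 21212 rows, of which 18786 carried 1 gene symbol. They comprised 4 CD300 genes (Cd300a, Cd300lf, Cd300lb and Cd300ld), 4 TREM genes (Trem1, Trem3, Treml2 and Treml4) and 1 PILR gene (Pilra). Expression was measured on exon arrays in primary microglia, the resident macrophages of the brain, from newborn wild-type CD-1 mice. Brains of a litter were pooled, and the cells were isolated on Percoll and kept 5 to 7 days in culture with M-CSF and GM-CSF at 10 ng/ml each. After a night without serum, cultures received LPS (100 ng/ml, 3 arrays), IL-4 (20 ng/ml, 3 arrays) or PBS as vehicle (3 arrays) for 4 h. LPS is a bacterial cell wall component that signals through TLR4 and is used to bring macrophages to a proinflammatory (M1) state, and IL-4 is a cytokine used to bring them to the alternative (M2a) state. All 9 arrays thus come from cells already exposed to both growth factors, outside the brain. The labels do not say that the 3 arrays of a condition came from separate litters, so the p-values below reflect how far these arrays differ from one another, which may be technical variation alone.

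CD300, TREM and PILR proteins are paired receptors: single immunoglobulin domain proteins of myeloid cells that come in closely related activating and inhibitory forms. Inhibitory members carry ITIM motifs in their own tails and recruit the phosphatases SHP-1, SHP-2 or SHIP-1. Activating members have short tails and signal through the ITAM adaptors DAP12 (gene Tyrobp) or FcR gamma (Fcer1g) and the kinase SYK. Several CD300 receptors bind phosphatidylserine and other lipids of dying cells, and TREM-1 is known as an amplifier of Toll-like receptor responses in neutrophils and monocytes. The CD300 genes neighbour each other on mouse chromosome 11 and the TREM genes on chromosome 17, whereas Pilra lies on chromosome 5 beside its activating relatives Pilrb1 and Pilrb2.

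Promoter windows of 300 bases, with 250 before and 50 after the annotated start, were found in RefSeq (GRCm38.p6) for 7 of the 9 genes; Trem3 and Treml2 are named only. Those of 4 genes are printed 5′ to 3′ on the strand of the gene because they stand for the patterns described below: a decrease after LPS without one after IL-4 (Cd300lb), a low level with IL-4 that did not pass the test (Cd300lf), and an increase after LPS in a TREM and in a PILR gene. Capitals mark matches, on either strand, to the PU.1 core GAGGAA, the TATA box TATAAA, the interferon-response element (GAAA, 2 free bases, GAAA), the STAT6 site (TTC, 4 free bases, GAA), the AP-1 site TGANTCA and the NF-kB consensus.
Cd300lb, chr11:114934322-114934621, - strand: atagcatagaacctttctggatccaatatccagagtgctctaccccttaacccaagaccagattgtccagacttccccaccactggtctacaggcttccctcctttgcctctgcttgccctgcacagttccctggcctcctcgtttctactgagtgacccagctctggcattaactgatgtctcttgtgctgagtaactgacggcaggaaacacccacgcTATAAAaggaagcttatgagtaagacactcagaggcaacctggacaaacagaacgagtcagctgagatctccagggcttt
Cd300lf, chr11:115133943-115134242, - strand: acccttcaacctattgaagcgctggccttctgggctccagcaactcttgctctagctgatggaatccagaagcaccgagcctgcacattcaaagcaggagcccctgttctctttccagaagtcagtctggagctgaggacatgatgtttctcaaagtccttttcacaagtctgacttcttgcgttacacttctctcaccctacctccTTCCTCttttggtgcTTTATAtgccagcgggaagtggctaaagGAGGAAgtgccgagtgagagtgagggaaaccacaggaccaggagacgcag
Trem1, chr17:48232489-48232788, + strand: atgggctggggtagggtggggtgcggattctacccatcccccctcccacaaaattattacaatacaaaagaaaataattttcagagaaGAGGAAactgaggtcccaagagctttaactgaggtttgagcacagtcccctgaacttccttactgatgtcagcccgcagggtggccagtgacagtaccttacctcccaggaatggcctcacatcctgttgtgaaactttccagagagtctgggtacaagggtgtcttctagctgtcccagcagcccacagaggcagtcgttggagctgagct
Pilra, chr5:137836229-137836528, - strand: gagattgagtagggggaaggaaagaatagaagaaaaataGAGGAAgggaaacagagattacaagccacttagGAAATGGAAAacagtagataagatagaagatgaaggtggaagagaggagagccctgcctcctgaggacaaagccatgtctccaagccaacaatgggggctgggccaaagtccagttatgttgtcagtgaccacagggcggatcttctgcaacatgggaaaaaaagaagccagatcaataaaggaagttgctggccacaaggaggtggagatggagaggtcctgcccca
The PU.1 core, bound by a factor that macrophages need, occurred in 6 of the 7 windows, all but that of Cd300lb, and in 28.3% of all 32851 windows of this length. TATAAA lay 30 bases before the start of Cd300lb on the strand of the gene. It lay 28 before that of Cd300lf on the opposite strand only, and occurred on either strand in 13.6% of all windows. The interferon-response letters were found in the window of Pilra, 178 bases before the start, and in 3.44% of all windows. The NF-kB consensus was found in the window of Cd300a, 169 bases before the start, and in 4.51% of all windows. Neither the STAT6 site (6.95% of all windows) nor the AP-1 site (7.81%) had a match in the 7 windows. Such a match is a run of letters and says nothing of binding.

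Expression values are given below as deposited, on the log2 scale of the RMA method, on which a difference of 1 is a doubling. They ranged over all rows from 2.05 to 13.06, and the values of different genes cannot be ranked against each other because each gene has its own probes. Replicate 3 of LPS and replicate 3 of PBS stood apart from the other arrays of their conditions. The first principal component (71.4% of the variance) separated LPS from the other conditions. The second (16%) separated both replicate 3 arrays from replicates 1 and 2 of LPS and PBS. The IL-4 arrays (6.18 to 13.2 on the second component) lay on the side of replicate 3 of PBS (16.6). Replicates 1 and 2 of PBS lay at -28.3 and -26.8. The part of this axis in the IL-4 against PBS values was not tested. No 2 arrays were copies of each other. A gene is called changed in the text where limma, fitted to all 9 arrays and all rows, gave an adjusted p under 0.05.

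After 4 h of LPS, 3 TREM genes and Pilra rose and 3 CD300 genes fell. Of the 9 receptor genes, 7 were called, against 37.8% of all 21212 rows. Higher were 4 (15.4% of all rows): Trem1, Trem3, Treml4 and Pilra. Lower were 3 (22.4% of all rows): Cd300a, Cd300lb and Cd300ld. Their log2 fold changes ran from -2.82 for Cd300lb to 3.29 for Trem1, and 6 of the 7 called genes changed at least 2-fold, which 6.64% of all rows did. On every LPS array 4 of the 9 genes were higher than on every PBS array (20.4% of all rows) and 3 were lower (25.4%), and these were the 7 called genes. The 9 genes were chosen with earlier results of these data known. Their counts beside the shares of all rows, here and below, are thus a description and not a test. Since whole cultures were measured, more cells of a type and more RNA per cell cannot be told apart.

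**Figure D1:**
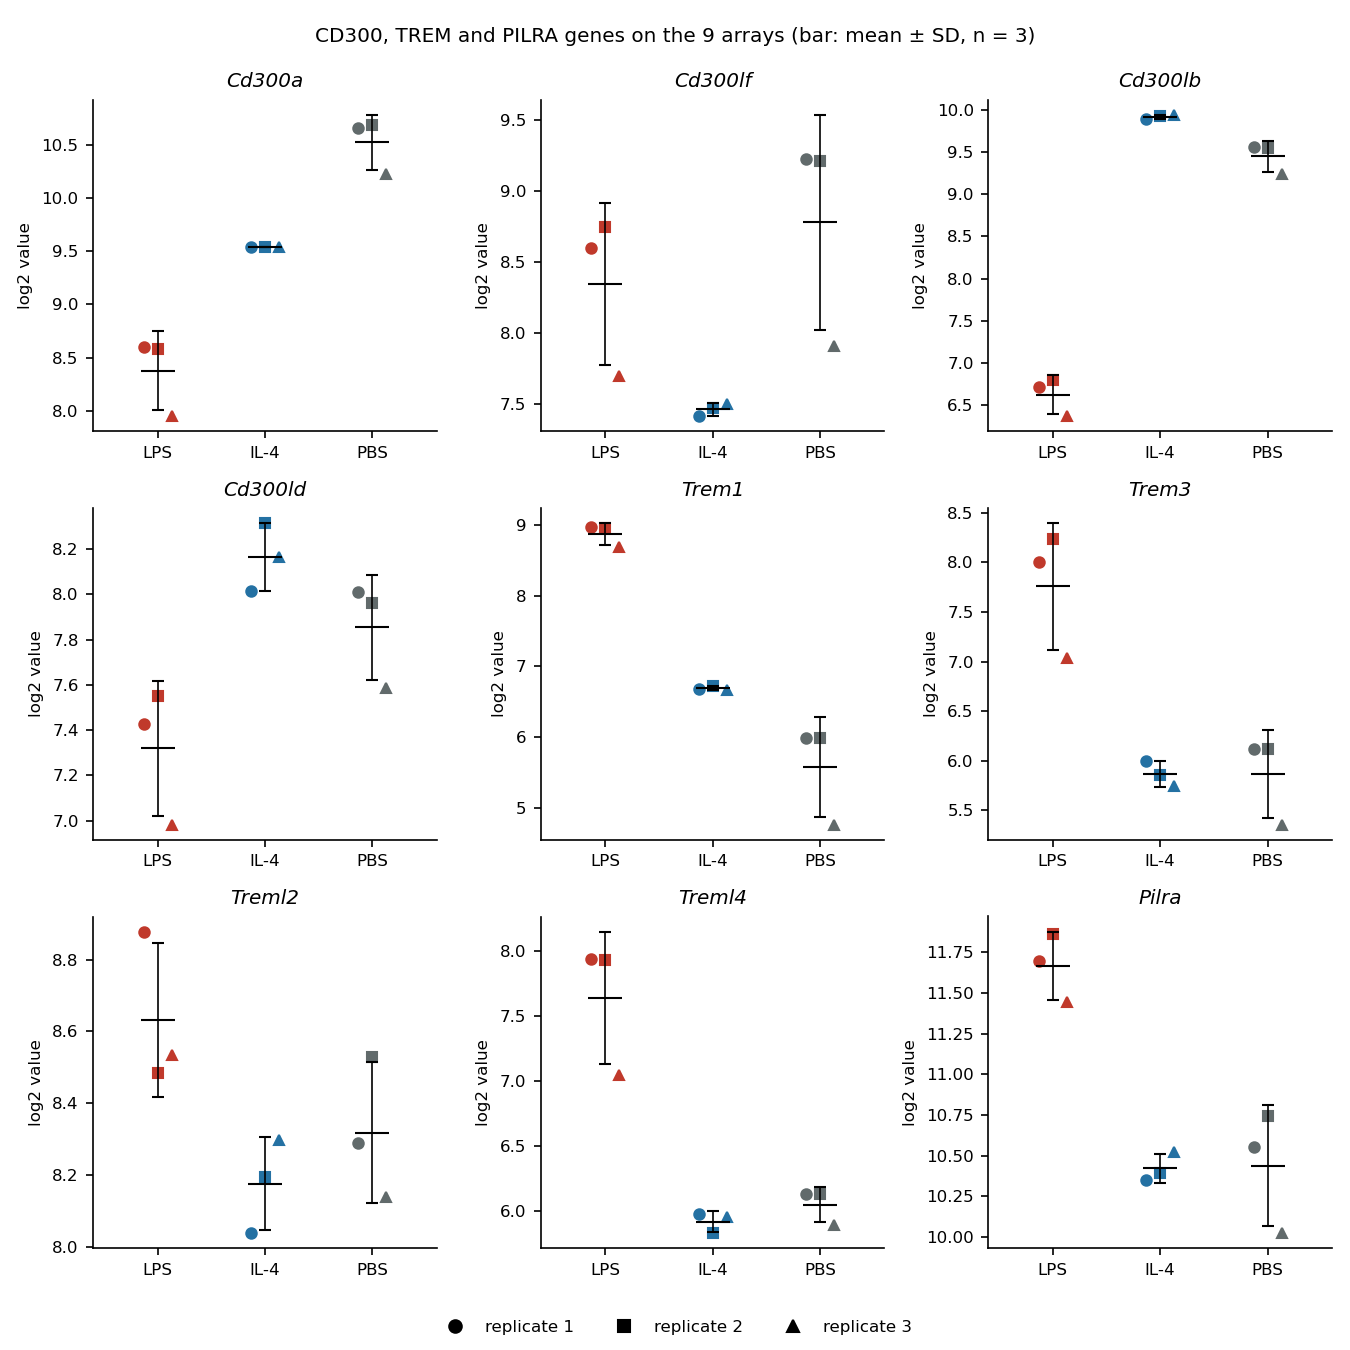
Level of the 9 receptor genes on each array, as deposited log2 values, for LPS, IL-4 and PBS from left to right; the symbols are replicates 1 to 3, and the bar and whisker are the mean and SD. The LPS points of Trem1, Trem3, Treml4 and Pilra all lie above the PBS points, and those of Cd300a, Cd300lb and Cd300ld all lie below them.

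Trem1, which encodes the DAP12-coupled amplifier of Toll-like receptor signals, read 8.97, 8.95 and 8.69 on the LPS arrays, 6.68, 6.73 and 6.67 on the IL-4 arrays and 5.99, 5.98 and 4.76 on the PBS arrays. The 3 conditions did not overlap, LPS being the highest and PBS the lowest, and replicate 3 of PBS lay well below the other PBS arrays. LPS raised Trem1 9.8-fold over PBS (log2 fold change 3.29 ± 0.29 (SE), 95% confidence interval 2.62 to 3.96, adjusted p = 3.92e-05). Without replicate 3 of both LPS and PBS, the log2 fold change was 2.97.

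Trem3 is a second DAP12-coupled activating receptor, present in mice and a pseudogene in humans. It had values of 8.0, 8.24 and 7.03 with LPS, 6.0, 5.86 and 5.74 with IL-4 and 6.12, 6.12 and 5.35 with PBS. Every LPS array was above every array of the other conditions, although replicate 3 of LPS was about 1 log2 unit below the other LPS arrays. The increase over PBS was 3.72-fold (log2 fold change 1.89 ± 0.32, 95% confidence interval 1.17 to 2.62, adjusted p = 0.00157). The methods' t-test left it at an adjusted p of 0.0526.

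Treml4, whose product binds dead cells and takes part in the macrophage response to TLR7 in mice, read 7.94, 7.93 and 7.05 with LPS, 5.97, 5.83 and 5.95 with IL-4 and 6.13, 6.13 and 5.89 with PBS. The LPS values again lay apart from the rest, by at least 0.92 from the nearest PBS value, and IL-4 and PBS arrays overlapped. The increase with LPS was 3.01-fold (log2 fold change 1.59 ± 0.22, 95% confidence interval 1.10 to 2.09, adjusted p = 0.000484).

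Treml2 encodes a TREM-like receptor of macrophages, neutrophils and B cells that does not rely on DAP12. Its values were 8.88, 8.48 and 8.53 with LPS, 8.04, 8.19 and 8.30 with IL-4 and 8.29, 8.53 and 8.14 with PBS. LPS and PBS arrays overlapped. The log2 fold change of 0.31 ± 0.13 (95% confidence interval 0.01 to 0.62) did not pass the test (adjusted p = 0.101), and it was called when each array's median was subtracted (0.43) or replicate 2 of PBS was left out (0.42). Among the 4 TREM genes it had the smallest change in response to LPS.

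Pilra encodes an ITIM receptor that recruits SHP-1 and recognises sialylated O-glycans on proteins. It measured 11.70, 11.86 and 11.45 with LPS, 10.35, 10.39 and 10.52 with IL-4 and 10.55, 10.74 and 10.02 with PBS. All LPS arrays exceeded all others, and the increase over PBS was 2.34-fold (log2 fold change 1.23 ± 0.18, 95% confidence interval 0.82 to 1.64, adjusted p = 0.000707). It was the only one of the 3 ITIM receptors among the 9 genes that LPS raised.

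Cd300lb, an activating receptor that pairs with DAP12 in mice, had the largest decrease of the 9 genes. It read 6.71, 6.80 and 6.37 with LPS, 9.89, 9.92 and 9.94 with IL-4 and 9.56, 9.54 and 9.24 with PBS. The LPS arrays were more than 2 log2 units below every other array, and all 3 IL-4 arrays were above all 3 PBS arrays. LPS lowered Cd300lb 7.06-fold relative to PBS (log2 fold change -2.82 ± 0.12, 95% confidence interval -3.10 to -2.54, adjusted p = 5.70e-07). The call held in each of the 17 alternative analyses, with log2 fold changes from -2.92 to -2.69.

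Cd300a is an ITIM receptor that binds phosphatidylserine and phosphatidylethanolamine. Its levels were 8.60, 8.58 and 7.95 with LPS, 9.54 on each of the 3 IL-4 arrays, and 10.66, 10.69 and 10.23 with PBS. The 3 conditions did not overlap, with IL-4 between LPS and PBS. The 3 IL-4 values were equal within 0.000001, as were those of 0.679% of all rows, so they give no measure of spread. LPS lowered Cd300a 4.44-fold (log2 fold change -2.15 ± 0.19, 95% confidence interval -2.57 to -1.73, adjusted p = 3.21e-05).

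Cd300ld, an activating receptor that pairs with FcR gamma, had values of 7.43, 7.55 and 6.98 with LPS, 8.01, 8.31 and 8.16 with IL-4 and 8.01, 7.96 and 7.59 with PBS. The highest LPS value was 0.04 below the lowest PBS value. The decrease was 1.45-fold (log2 fold change -0.53 ± 0.17, 95% confidence interval -0.92 to -0.15, adjusted p = 0.0345). This call was lost in 8 of 17 alternatives, among them those without replicate 1 or 3 of LPS or without replicate 1 or 2 of PBS (adjusted p between 0.0573 and 0.107, log2 fold changes between -0.59 and -0.37).

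Cd300lf encodes an ITIM receptor for ceramide and phosphatidylserine that is also the entry receptor of murine norovirus. It read 8.60, 8.75 and 7.70 with LPS, 7.41, 7.48 and 7.50 with IL-4 and 9.22, 9.21 and 7.91 with PBS. Within LPS and within PBS, replicate 3 was about 1 log2 unit or more below the others, and the ranges of these conditions overlapped. The log2 fold change for LPS against PBS was -0.43 ± 0.38 (95% confidence interval -1.30 to 0.44, adjusted p = 0.414). It was -0.87 without replicate 3 of PBS (adjusted p = 0.0384) and -0.11 without replicate 3 of LPS. With the replicate number as a block in the 6 LPS and PBS arrays, the same difference had an adjusted p of 0.0115, and without replicate 3 of both conditions it was -0.54 (adjusted p = 0.000303).

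With IL-4, Cd300a alone of the 9 genes was called, against 5.40% of all rows, and it was lower in IL-4 than in PBS (2.05% of all rows were called lower). None of the 9 was called higher (3.35% of all rows), and none was called with a change of at least 2-fold (0.589%). The log2 fold change of Cd300a was -0.99 ± 0.19 (95% confidence interval -1.41 to -0.57, adjusted p = 0.0196), a decrease of 1.98-fold. The call was lost on leaving out any 1 of the IL-4 arrays or replicate 1 or 2 of PBS, with adjusted p between 0.0753 and 0.0831. The log2 fold change ranged from -1.14 to -0.91 over the left-out arrays, and leaving out an IL-4 array could not move it because the IL-4 values were equal.

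Another 4 receptor genes had IL-4 arrays that did not overlap the PBS arrays without passing the test. Cd300lf was lower on every IL-4 array, by 1.32 ± 0.38 on the log2 scale (95% confidence interval of the fold change -2.18 to -0.45, adjusted p = 0.0917). Without replicate 3 of PBS the value was -1.75 (adjusted p = 0.00898). Trem1 was higher on every IL-4 array, with a log2 fold change of 1.11 ± 0.29 (95% confidence interval 0.44 to 1.78, adjusted p = 0.0695), and of 0.70 without replicate 3 of PBS (adjusted p = 0.00339). Cd300lb was higher by 0.47 ± 0.12 (95% confidence interval 0.19 to 0.75, adjusted p = 0.0691) and Cd300ld, whose lowest IL-4 value barely exceeded the highest PBS value, by 0.31 ± 0.17 (95% confidence interval -0.07 to 0.69, adjusted p = 0.334). Of all rows, 14.7% were higher and 14.3% lower on every IL-4 array than on every PBS array.

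The other receptor genes gave no call for IL-4. The log2 fold change was 0.00 for Trem3 (95% confidence interval -0.72 to 0.73), -0.14 for Treml2 (-0.45 to 0.16), -0.13 for Treml4 (-0.63 to 0.37) and -0.02 for Pilra (-0.42 to 0.39). None of the 4 intervals reached a doubling in either direction. They reflect the spread among these arrays, which may be technical alone.

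Between the stimuli, 8 of the 9 genes were called for LPS against IL-4, against 46.9% of all rows. LPS was higher for 5 (21.0% of all rows) and lower for 3 (25.9%). The gap was widest for Cd300lb, which was 9.78-fold lower with LPS than with IL-4 (log2 fold change -3.29 ± 0.12, adjusted p = 2.18e-07). Cd300a was lower by 1.16 (adjusted p = 0.00111) and Cd300ld by 0.85 (adjusted p = 0.00353) on the log2 scale. Trem1 was 4.53-fold higher (log2 fold change 2.18 ± 0.29, adjusted p = 0.000418). All 3 LPS arrays were above all 3 IL-4 arrays for 6 of the 9 genes (28.4% of all rows) and below them for 3 (31.5%), and 6 were called with a change of at least 2-fold (6.81%). Trem3 (1.89), Treml4 (1.72), Pilra (1.24) and Treml2 (0.46, adjusted p = 0.0226) were also higher with LPS than with IL-4. Cd300lf was the exception: its LPS values all exceeded its IL-4 values, but its log2 fold change of 0.88 ± 0.38 had an adjusted p of 0.0865.

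The remaining genes of the 3 families did not all follow the receptors above. Of 15 listed, 10 were measured. LPS raised 3 of them (15.4% of all rows) and lowered 2 (22.4%), with a median log2 fold change of -0.27 against 0.01 for all rows. The genes that rose were the activating Pilrb1 (log2 fold change 1.83 ± 0.15, adjusted p = 2.57e-05) and Pilrb2 (1.55 ± 0.17, adjusted p = 0.000157), both partners of DAP12, and Cd300e (0.45 ± 0.10, adjusted p = 0.00695). Pilrb1 read 10.36, 10.34 and 9.88 with LPS, 7.71, 7.89 and 7.96 with IL-4 and 8.40, 8.54 and 8.12 with PBS. The inhibitory Pilra and the activating Pilrb1 and Pilrb2, which lie side by side and are close in sequence, were all called higher with LPS, and how far their probes tell them apart was not analysed here.

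Trem2, the lipid-sensing DAP12 receptor of microglia, differed from its neighbours on the chromosome. Its values were 10.45, 10.49 and 10.43 with LPS, 10.77, 10.79 and 10.82 with IL-4 and 11.21, 11.20 and 11.38 with PBS. Conditions did not overlap, and PBS was the highest. Trem2 fell by 0.81 with LPS (SE 0.06, adjusted p = 1.18e-05) and by 0.47 with IL-4 (SE 0.06, adjusted p = 0.00302), both in log2 units. Treml1 did not pass the test (log2 fold change -0.28 with LPS, adjusted p = 0.0754).

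In the CD300 cluster, Cd300c2 fell by 0.53 with LPS (adjusted p = 0.000106) and by 0.30 with IL-4 (adjusted p = 0.0203). Cd300c (-0.31), Cd300ld3 (-0.26), Cd300ld4 (-0.45) and Cd300lg (0.06) gave no call with LPS, and none of these 4 was called with IL-4. Cd300ld3 and Cd300ld4 had their highest LPS and PBS values on replicate 3, where most members were at their lowest. Cd300ld, Cd300ld3 and Cd300ld4 are closely related paralogs, and how far their probes tell them apart was not analysed here. Cd300ld2, Cd300ld5, Trem5, Trem6 and Trem7l were not analysed here.

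**Figure D2:**
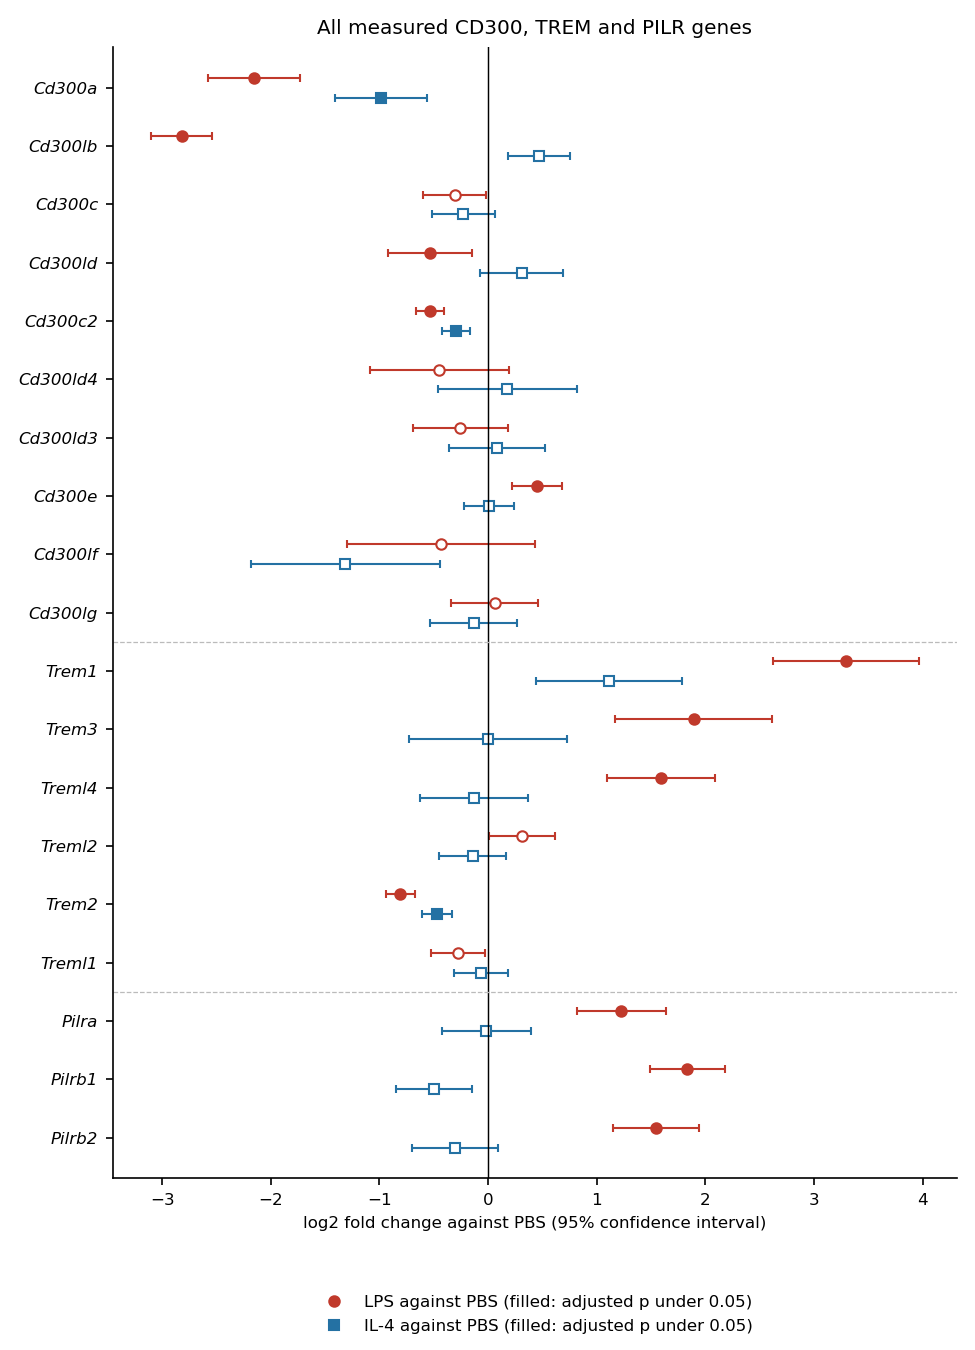
Log2 fold change against PBS, with its 95% confidence interval, for every measured gene of the 3 families, LPS above IL-4, with genes in the order in which they neighbour each other except Cd300lg, which lies apart; filled symbols passed the test. In the CD300 group only Cd300e has a filled LPS symbol to the right of 0, whereas in the TREM group only Trem2 has one to the left of it.

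Of the adaptors through which the activating receptors signal, Tyrobp fell slightly with LPS and Fcer1g gave no call. Tyrobp (DAP12) read 12.22, 12.26 and 11.998 with LPS, 12.22, 12.25 and 12.30 with IL-4 and 12.45, 12.50 and 12.41 with PBS. It fell by 0.29 with LPS (SE 0.07, adjusted p = 0.0124), and its IL-4 log2 fold change was -0.20 (adjusted p = 0.177). Fcer1g (FcR gamma) had a log2 fold change of -0.00 with LPS (adjusted p = 0.963).

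Taking the adaptors with the genes that act downstream of them, 17 of 19 listed ITAM adaptors and kinases were measured. LPS raised 5 and lowered 4 (median log2 fold change -0.00). The largest increase was that of Malt1 (2.57), the paracaspase of the complex with CARD9 and BCL10, while Card9 itself fell by 1.55 and Bcl10 rose by 0.72. Lcp2 (SLP-76) rose by 1.29 and Syk by 0.82, and the linker Lat2 fell by 1.34. Of all rows, 15.4% were called higher and 22.4% lower. With IL-4, none rose and 2 fell (2.05% of all rows), Vav1 by 0.39 and Pik3cd by 0.29 (median -0.19). That count was 5 without replicate 3 of PBS, 1 without replicate 1 of IL-4 and 0 without any other single IL-4 or PBS array.

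Of 12 phosphatases and other inhibitory effectors, which act behind ITIM receptors, 3 rose (15.4% of all rows) and 6 fell (22.4% of all rows) with LPS (median -0.28). The count lower was 3 without replicate 1 or 2 of PBS, 8 without replicate 3 of PBS, and 4 without replicate 2 of LPS. Inpp5d, the gene of SHIP-1, read 7.80, 7.71 and 8.01 with LPS, 9.93 on each IL-4 array and 10.21, 10.26 and 10.34 with PBS. It fell 5.39-fold with LPS (log2 fold change -2.43 ± 0.08, adjusted p = 9.76e-08) and had a log2 fold change of -0.34 with IL-4 (adjusted p = 0.0430). The IL-4 values of Inpp5d were equal within 0.000001 and carry no spread, and its IL-4 call was lost without any 1 of the 6 arrays (adjusted p between 0.0653 and 0.144). Ptpn6 (SHP-1) gave no call with LPS (0.18, adjusted p = 0.188), Ptpn11 (SHP-2) rose by 0.37, Dok1 rose by 0.42, and Ubash3b, a phosphatase that acts on SYK, rose by 1.04. With IL-4, the adaptor gene Dok2 rose by 0.83 and Cbl by 0.42, and Dok1 fell by 0.35 (median of the list -0.09), a call that held only without replicate 3 of PBS when single arrays were left out.

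**Figure D3:**
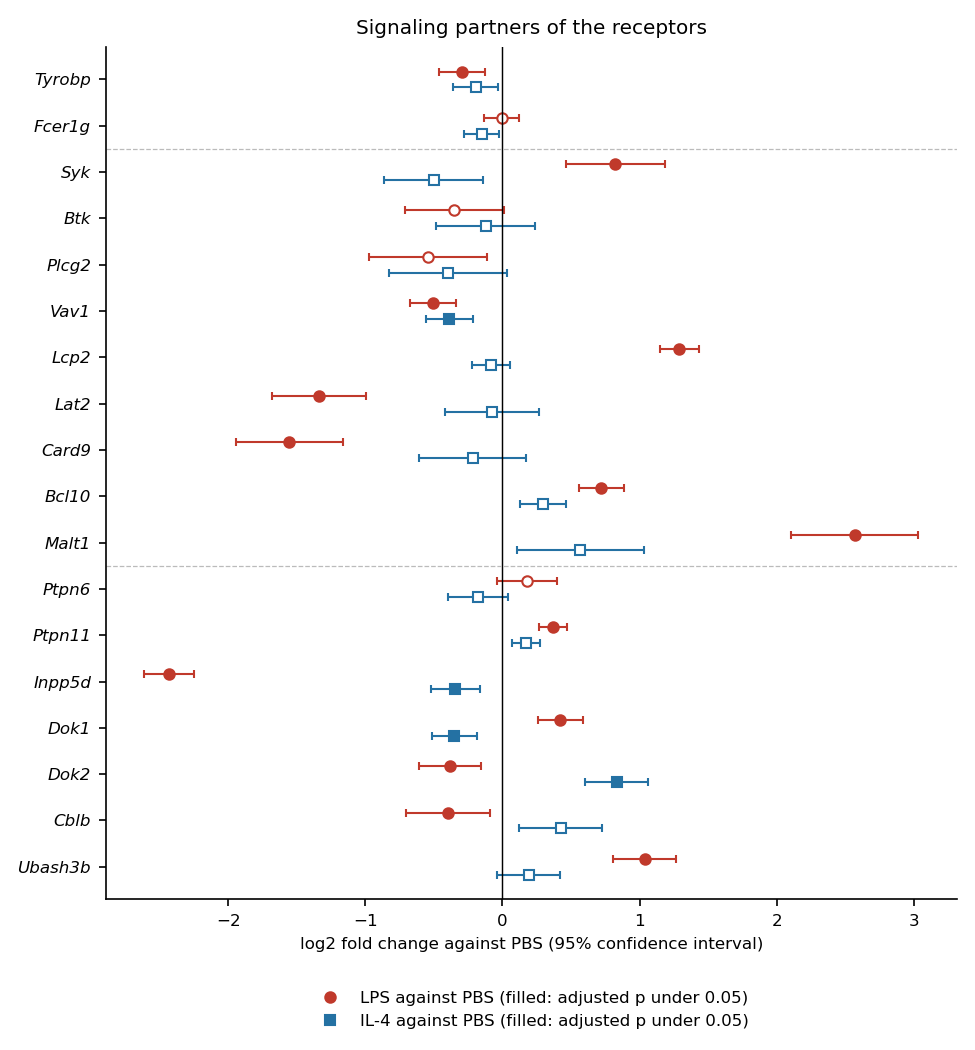
Log2 fold change against PBS, with its 95% confidence interval, of the ITAM adaptors at the top, their downstream signaling genes in the middle and the inhibitory effectors at the bottom, LPS above IL-4; filled symbols passed the test. Tyrobp and Fcer1g lie within 0.30 of 0 for both stimuli, whereas Malt1 (2.57) and Inpp5d (-2.43) mark the ends of the LPS values.

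Other inhibitory receptors of myeloid cells changed in both directions with LPS. All 18 listed were measured, and LPS raised 5 (15.4% of all rows) and lowered 5 (22.4%), with a median log2 fold change of 0.18. Siglece, a sialic acid receptor with ITIM motifs, rose by 2.03 and Cd72 by 1.75, while Vsir (VISTA) fell by 1.90. With IL-4, Siglece rose by 0.97 and Lair1, a collagen receptor, by 1.02, and Vsir fell by 0.53 (median -0.27). Lair1 fell by 1.02 with LPS, so its LPS and IL-4 changes had opposite signs, and LPS was 2.04 below IL-4 on the log2 scale.

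Other receptors that use DAP12 or FcR gamma were measured for 12 of 13 genes, of which LPS raised 3 and lowered 1 (median 0.13). Of all rows, LPS raised 15.4% and lowered 22.4%. Clec4e (Mincle) rose by 3.95 and Klrk1 (NKG2D) by 1.83, Clec4d, the partner of Clec4e, rose by 0.87, and Fcgr3 fell by 0.85. With IL-4, 1 rose (3.35% of all rows) and 4 fell (2.05%), with a median of -0.21. The largest decreases were those of the Fc receptor genes Fcgr1 (-1.78) and Fcgr4 (-1.07) and of Clec4d (-0.77). A further list held ligands, co-receptors and Toll-like receptors set beside the 3 families. Of its 11 measured genes (12 listed), LPS raised 3 and lowered 2 (median 0.07). The Toll-like receptor gene Tlr3 (1.82) and Cd14 (1.64) had the largest increases, and Pianp, whose product binds PILRA, fell by 0.70. With IL-4, none rose and 3 fell (median -0.10): Tlr7 (-0.86), Cd14 (-0.43) and Tlr3 (-0.25). Pglyrp1, a ligand of TREM-1, had values of 5.51, 5.72 and 5.49 with LPS, 5.33, 5.36 and 5.24 with IL-4 and 5.57, 5.42 and 5.24 with PBS, which overlapped between LPS and PBS.

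For LPS against IL-4, the calls in these lists were 6 higher and 3 lower among the ITAM adaptors and kinases (median log2 fold change 0.07), led by Malt1 (2.0), Lcp2 (1.38) and Card9 (-1.34), and 4 higher and 5 lower among the inhibitory effectors (median -0.19), led by Inpp5d (-2.09), Dok2 (-1.22) and Ubash3b (0.85). Of all rows, 21.0% were called higher and 25.9% lower. Among the other inhibitory receptors, 6 were higher and 5 lower (median 0.10), led by Lair1 (-2.04), Clec12a (1.66) and Vsir (-1.38). Of the other users of DAP12 or FcR gamma, 6 were higher and 2 lower (median 0.34), led by Clec4e (3.30), Fcgr1 (2.18) and Klrk1 (2.04). Of the ligands, co-receptors and Toll-like receptors, 5 were higher and 3 lower (median 0.17), led by Cd14 and Tlr3 (2.07 each) and Tlr7 (0.99). In the rest of the 3 families, 3 were higher, Pilrb1 (2.33), Pilrb2 (1.85) and Cd300e (0.44), and 2 were lower, Trem2 (-0.34) and Cd300c2 (-0.24), with a median of -0.14 against 0.03 for all rows.

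The profiles of the 9 genes over the 9 arrays can be set against every other named gene by Pearson's r, as a description, since the arrays form 3 conditions and share the position of replicate 3. Within the 9, Trem3 and Treml4 ran closest together (r = 0.98), followed by Trem3 and Pilra (0.97), and Cd300lb and Treml4 were the most opposed (-0.92). Of all genes, the 2 closest were Tes and Rhbdf2 for Trem1 (0.996 each), Mapk6 and Pip5k1a for Trem3 (0.996 and 0.995), Ampd3 and Rassf4 for Treml4 (0.998 and 0.997), Tldc2 and Slco4c1 for Treml2 (0.972 and 0.962) and Aoah and Smg8 for Pilra (0.994 each). For the CD300 genes they were Pacc1 and Wasf2 for Cd300lb (0.999 and 0.998), Erp29 and Hs1bp3 for Cd300a (0.998 and 0.996), Cstf3 and Reep3 for Cd300ld (0.983 and 0.980) and Rragc and Atp6v0b for Cd300lf (0.997 and 0.989).

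The receptor genes varied with replicate 3 more than most genes did. In LPS, 8 of the 9 genes had their lowest value on replicate 3, all but Treml2, and in PBS all 9 did, whereas 47.8% and 48.7% of all rows did so. The median difference between replicate 3 and the mean of replicates 1 and 2 was -0.51 in LPS, 0.03 in IL-4 and -0.45 in PBS over the 9 genes, and -0.05, -0.01 and -0.04 over all rows. Within the 9, the gap was largest for Trem3 (-1.09) and Cd300lf (-0.98) in LPS and for Cd300lf (-1.31) and Trem1 (-1.23) in PBS. Such gaps were not particular to the 9 genes. Among the related genes, replicate 3 was also lower for Ceacam1 (-2.26 in LPS, -1.95 in PBS), Clec4n (-1.12, -1.42) and Tlr4 (-0.84, -0.94). Others went the other way, such as Cd72 (0.98, 1.55) and Cd300ld4 (0.84, 0.84). Markers of several cell types moved with the same arrays, and the share of all rows highest on replicate 3 was 32.3% in LPS and 31.5% in PBS. All 9 motile cilia markers had their highest value on replicate 3 in LPS and in PBS (median difference from replicates 1 and 2 of 1.51 and 1.80). So did 8 of 8 oligodendrocyte markers in LPS (0.99) and 7 of 8 in PBS (0.69), and 6 and 7 of 8 astrocyte markers (0.56 and 0.65). Of 11 microglial markers, all 11 were highest on replicate 3 in PBS (0.40), but in LPS 5 were highest and 3 lowest (-0.00). Gpr17, a gene of oligodendrocyte precursors, read 6.13, 6.22 and 9.01 with LPS and 6.19, 6.10 and 9.40 with PBS, and Fcrls, a microglial gene, read 7.31, 7.11 and 9.31 with LPS and 7.40, 7.67 and 10.35 with PBS. Their part in the receptors' values was not tested. Leaving out both replicate 3 arrays reversed no LPS against PBS change of the 9 genes.

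**Figure D4:**
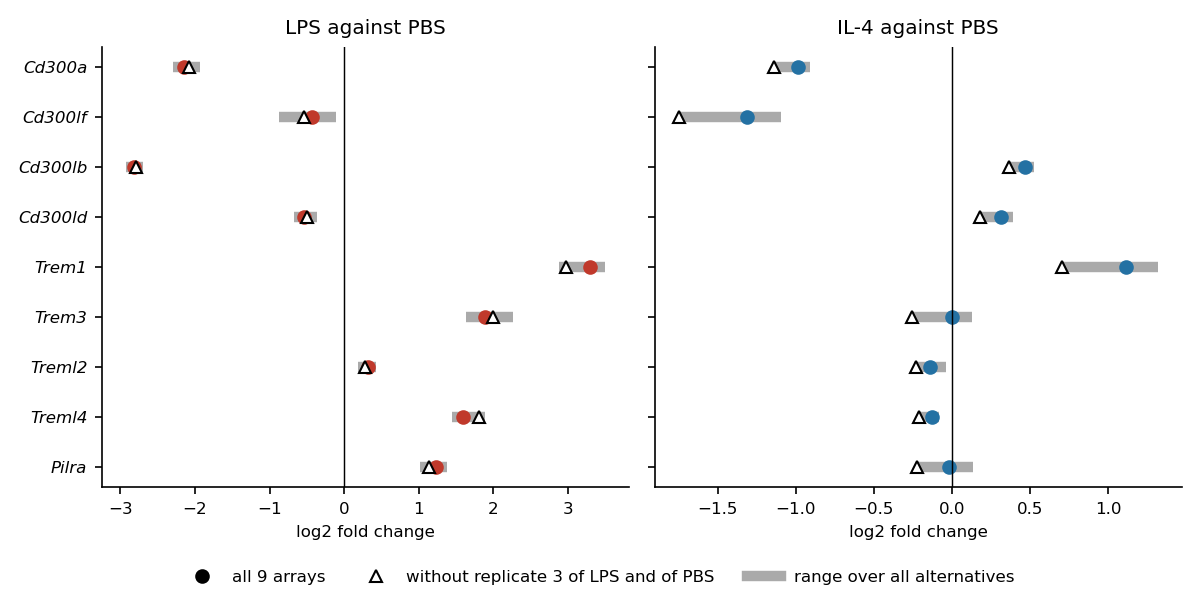
Log2 fold change of the 9 receptor genes against PBS with all 9 arrays (circles) and without replicate 3 of LPS and of PBS (triangles); the grey line spans all alternatives. The triangle of Trem1 for IL-4 lies at 0.70 beside a circle at 1.11, and that of Cd300lf at -1.75 beside a circle at -1.32.

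Markers of the cell types that a microglial culture could hold were set beside these values. The microglial markers P2ry12 (7.35 to 7.58 with LPS, 8.12 to 8.25 with IL-4, 8.12 to 8.68 with PBS), Tmem119 (6.19 to 6.41, 7.20 to 7.32, 6.90 to 7.30) and Cx3cr1 (7.60 to 8.49, 9.31 to 9.55, 9.15 to 10.86) were measured in all conditions, and LPS lowered 6 of 11 measured microglial markers (12 listed) and raised none. Of all rows, LPS raised 15.4% and lowered 22.4%. Neutrophils also express Trem1, Trem3 and Pilra. Of 13 neutrophil markers, LPS raised 3 (S100a8, Camp and Ltf) and lowered 1 (Cxcr2), and the mean over the list was 5.57 to 5.82 with LPS, 5.70 to 5.74 with IL-4 and 5.49 to 5.74 with PBS. The defining Ly6g stayed between 3.31 and 3.41 with LPS, 3.09 and 3.42 with IL-4 and 3.26 and 3.38 with PBS, and S100a8 was 6.45 to 7.46 with LPS, 5.62 to 5.90 with IL-4 and 5.84 to 6.37 with PBS. Mmp8, in the same list, read 9.75, 10.14 and 7.70 with LPS, 8.41, 7.56 and 8.08 with IL-4 and 10.28, 10.22 and 7.09 with PBS, so that it was lowest on replicate 3 of LPS and of PBS together with most of the receptors. Csf3r went the other way: it read 8.97, 8.74 and 9.19 with LPS, 9.37 to 9.71 with IL-4 and 8.64, 8.86 and 9.64 with PBS. Of the 13 neutrophil markers, 7 were lowest on replicate 3 in LPS and 7 in PBS, near the 47.8% and 48.7% of all rows. Highest on replicate 3 were 4 in LPS and 3 in PBS. Of 6 measured blood monocyte markers (8 listed), 2 rose and 1 fell with LPS, and the list mean was 7.19 to 7.32 with LPS, 7.61 to 7.66 with IL-4 and 6.68 to 7.06 with PBS. Chil3, a gene induced by IL-4 in macrophages, carried the higher IL-4 mean: it read 9.49 to 9.90 with IL-4 and 3.83 to 4.45 with PBS, and without it the mean of the other 5 markers was 7.76 to 7.97 with LPS, 7.21 to 7.23 with IL-4 and 7.12 to 7.70 with PBS. Ccr2 read 4.20 to 4.39 with LPS, 4.53 to 4.64 with IL-4 and 4.66 to 5.23 with PBS. The part of other cells in the receptors' changes was not tested.

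Among the other cell type lists, LPS raised 1 and lowered 1 of 8 mast cell markers, raised 1 of 9 measured lymphocyte markers (10 listed) and 1 of 8 dendritic cell markers, raised 1 and lowered 1 of 8 astrocyte markers, and lowered 1 of 8 measured oligodendrocyte markers (9 listed) and 1 of 8 fibroblast and meningeal markers. No call was made among 8 neuron and 9 motile cilia markers. Of all rows, 15.4% were called higher and 22.4% lower with LPS, and 3.35% higher and 2.05% lower with IL-4. With IL-4, 5 of 8 fibroblast and meningeal markers, 2 blood monocyte markers, 1 neutrophil marker and 1 dendritic cell marker were higher, 1 neutrophil and 1 microglial marker were lower, and the other lists gave no call. The mean of the motile cilia list was 7.00 to 8.66 with LPS, 8.42 to 8.70 with IL-4 and 7.31 to 9.08 with PBS. That of the astrocyte list was 10.56 to 10.99 with LPS, 10.80 to 10.82 with IL-4 and 10.59 to 11.11 with PBS. Astrocyte transcripts were thus measured in every condition, and their part in the receptors' values was not tested.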

How the data were processed

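RNA of 9 samples was hybridised to Affymetrix Mouse Exon 1.0 ST arrays. The deposited log2 values, 1 per row and array, were made by the authors with RMA (background correction, quantile normalization and probe summary) in the affy package. Versions are not given in the sources used here. No detection calls, counts or depths come with them, so the number of arrays limits the precision. Of 21212 rows, 18786 carried 1 symbol, 6 several and 2420 none; symbols came from the platform annotation given with the array.

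A linear model with a mean per condition was fitted to all 9 arrays with limma 3.58.1 (R 4.3.3) and moderated by eBayes. Benjamini-Hochberg adjustment ran across every row, within each of 3 comparisons. LPS and IL-4 share the PBS arrays. The fit was run on simulated arrays with independent errors and, for each gene, the same spread in every condition. These lack the shared position of replicate 3 and the unequal spread of the real arrays, so they do not test the fit under either. Alternatives were the methods' t-test, only the 6 arrays compared, trended and robust eBayes, array weights, array medians subtracted, quantile normalization again, the dimmest 33.3% of rows left out, a replicate block, each array left out and both replicate 3 arrays left out. The block within LPS and PBS arrays was added after seeing the data: same-numbered LPS and PBS arrays deviated together (r = 0.58, 0.65 and 0.80), while IL-4 and PBS arrays (0.34, -0.25 and 0.08) and LPS and IL-4 arrays (0.29, -0.23 and 0.06) did not. LPS and PBS alone met the criterion that each same-numbered pair exceed 0.1, and only the block alternatives treated them as paired. The main fit used no block. Replicates 1 and 2 were not told apart: LPS 1 with PBS 2 gave 0.54 and LPS 2 with PBS 1 gave 0.60. A shared position of replicate 3 is thus shown, and a pairing of each number is not, in the data or the labels.

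Besides the 9 genes, the text names the other measured genes of the 3 families, the 3 called genes with the largest change in a list and comparison, the 2 genes closest in profile to each of the 9, and defining markers of neutrophils, monocytes and microglia; further genes were named after their values were seen. The 9 genes and the lists (6 of related genes, 11 of cell types) were chosen with earlier results of these data known. Promoter windows came from RefSeq.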

Additional observations from a re-analysis of the deposited data

How the results depend on the processing

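Of 441 values recomputed for single receptor genes under the alternatives, 389 kept their direction and their side of the threshold, 25 gained a call, 19 lost one and 8 turned sign. For LPS against PBS, the counts were 4 to 5 receptor genes higher and 2 to 4 lower over the left-out arrays, and for LPS against IL-4 they were 4 to 6 higher and 3 lower. For IL-4 against PBS, where 0 were higher and 1 was lower, the counts were 1 higher with only the 6 arrays compared, 0 lower by the methods' t-test, 2 higher and 2 lower with array weights, 2 higher and 3 lower on leaving out replicate 3 of both LPS and PBS, and 0 to 1 higher and 0 to 2 lower over the left-out arrays. The replicate block in 9 arrays gave 2 higher (Cd300lb and Trem1) and 2 lower (Cd300a and Cd300lf) for IL-4 against PBS, although IL-4 and PBS arrays share only a number, and called Cd300lf for LPS against IL-4 (0.88). For LPS against PBS the block in 9 arrays changed no call, and the added block in 6 arrays changed only that of Cd300lf. The IL-4 values near 0 that turned sign were those of Trem3, at -0.26 with array weights, -0.039 with medians subtracted, -0.25 on leaving out both replicate 3 arrays and -0.25 to 0.13 over the left-out arrays, and of Pilra, at -0.22 to 0.13 over the left-out arrays. Treml2 lost its LPS against IL-4 call by the methods' t-test and without replicate 1 of LPS or replicate 1 or 2 of IL-4 (0.33 to 0.46). Subtracting each array's median moved the median over all rows for LPS against PBS to 0.12, and the split of all calls to 5872 higher and 3323 lower, from 3266 and 4748; for LPS against IL-4 the split moved to 9567 and 3697, from 4458 and 5495. For IL-4 against PBS, the counts called lower over the left-out arrays were 1 to 3 in the rest of the 3 families and 1 to 5 among the other inhibitory receptors. They were 2 to 4 among the other users of DAP12 or FcR gamma and 1 to 3 among the ligands, co-receptors and Toll-like receptors. In each list the count was highest without replicate 3 of PBS. The causes were not tested. With 3 arrays per condition that may be technical replicates, and a wider spread of these genes in LPS and PBS (median SD 0.30 and 0.26) than in IL-4 (0.08), changes of the size of that spread rest on few arrays.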
